A study of Homo sapiens with 6 samples.

Results

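The genes described here encode the endosomal sorting machinery: the sorting nexins, the vacuolar protein sorting (VPS) genes with the retromer subunits, the endosomal sorting complexes required for transport (ESCRT), the endosomal tether EEA1 and the EHD ATPases. They were taken by name, as all symbols that begin with SNX, VPS or CHMP and a number, together with VTA1, HGS, STAM, STAM2, TSG101, PDCD6IP, EEA1 and EHD1 to EHD4. Of 14812 genes with a symbol on the arrays, 83 were taken, of which 79 are protein coding and 4 are noncoding RNAs or pseudogenes. Another 8 of the 87 protein-coding genes with such names, CHMP3, PDCD6IP, SNX10, SNX14, SNX15, SNX25, VPS16 and VTA1, have no named probe and were not analysed here. The name rule also takes VPS72, a subunit of a chromatin complex that handles a histone variant and not an endosomal protein. The RNA was from SKBR3, a HER2-positive line of breast cancer cells. The cells stably expressed an shRNA against NDRG1 (shNDRG1, 3 arrays) or a control construct (shGFP control, 3 arrays). The sample titles name GFP for the control, whereas the study's methods for the arrays name a vector control. All cells were grown in DMEM with fetal bovine serum and harvested in log phase, and the sample titles mark every culture as without DFO (deferoxamine, an iron chelator). The study's methods name a single hairpin against NDRG1 for the arrays, so that hairpin and its target cannot be told apart. Batches 1 to 3 in the labels, whose nature is not stated, pair an shNDRG1 array with a control array.

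Endosomes receive membrane proteins and lipoproteins taken up from the cell surface and decide their fate. Sorting nexins bind endosomal phosphoinositides and shape tubules that carry cargo back, with retromer, to the Golgi or the plasma membrane. Cargo marked with ubiquitin is instead gathered by the ESCRT complexes into vesicles inside the endosome, which the HOPS complex then helps to fuse with the lysosome. NDRG1 is itself known as an effector of a RAB GTPase of recycling endosomes and has been implicated in LDL receptor trafficking in other cells, and these genes were examined to see whether the transcripts of that machinery differed once NDRG1 was silenced.

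The values are log2 values from which the authors subtracted a baseline for each probe, so a value has no meaning as a level and only differences between arrays can be read. The log base is not stated and is taken here as 2. Differences are shNDRG1 minus shGFP control and were tested with limma with the batch as a block, so that each shNDRG1 array is compared with the control array of its own batch. The target was lower in every batch. NDRG1 was at -0.77, -0.74 and -1.09 on the shNDRG1 arrays of batches 1, 2 and 3 and at 0.022, 0.42 and -0.022 on the control arrays. Its log2 difference was -1.01 (standard error 0.09, adjusted p = 0.289), so even the silenced gene did not pass an adjusted p of 0.05. Across these genes the pair of batch 2 lay apart from the other 4 arrays. The standard deviation over the 83 genes was 0.49 and 0.58 on the shNDRG1 and control arrays of batch 2 and between 0.13 and 0.22 on the others. Because no level remains, the labelled cell type could not be checked against its markers. For 6 of 7 listed markers of luminal HER2-positive cells only the difference can be given, from -0.44 for GRB7 to 0.14 for ESRP1. Of 7 listed markers of other cell types, CD68 and DCN have a named probe. CD68, a macrophage marker that also encodes a lysosomal membrane protein, had a log2 difference of 0.51 (standard error 0.11), and DCN, a fibroblast marker, of 0.02 (standard error 0.05). The part of other cells in the results was not tested.

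More of these genes were above the control than below it, by small amounts. Over the 83 genes the median log2 difference was 0.07, with quartiles of -0.03 and 0.14, whereas over all 14812 genes the median was 0.0070 with quartiles of -0.05 and 0.07. A difference above 0 was seen for 56 genes (67.5%, against 53.6% of all genes) and one below 0 for 27 (32.5%, against 46.4%). By batch the share above 0 was 60.2%, 66.3% and 56.6%, against 50.5%, 53.6% and 55.2% of all genes, so in batch 3 it was close to that of all genes. In all 3 batches 23 were above the control (27.7%, against 17.1% of all genes) and 8 were below it (9.64%, against 12.5%). None of the 83 passed an adjusted p of 0.05 in limma (0% of all genes passed). At an unadjusted p below 0.05, 10 were higher (12%, against 5.7% of all genes) and 2 were lower (2.41%, against 3.74%), so that 12 differed in either direction (14.5%, against 9.45%). Without the block these counts were 6 (2.69% of all genes) and 0 (1.57% of all genes, and 4.26% in either direction), and 5 of the 6 were among the 12. In 7 genes, VPS33A, VPS33B, VPS52, TSG101, CHMP1B, CHMP4A and CHMP6, every shNDRG1 array lay above every control array (8.43%, against 5.14% of all genes), and in 0 genes below (3.21% of all genes, and 8.35% in either direction). For such a gene the two-sided exact permutation test, which ignores the pairing, gives p = 0.1, the smallest that 3 arrays against 3 allow. With 3 pairs the smallest two-sided p that a sign-flip test can give is 0.25. The excess above the control shrank with another scaling, since after a repeated quantile normalization 48 of the 83 (57.8%) were above 0, against 50.2% of all genes.

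**Figure D1:**
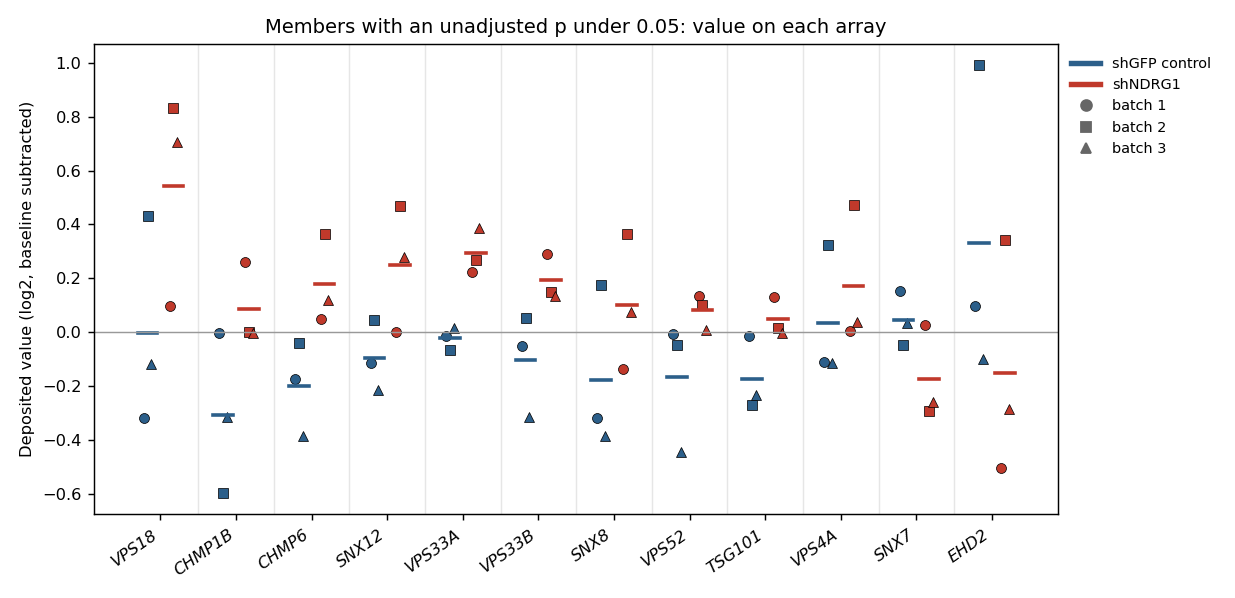
Deposited log2 value with the baseline subtracted (vertical axis) on each of the 6 arrays, for the 12 genes with an unadjusted p below 0.05, with symbols for the batch and bars for the mean of 3 arrays. In VPS33A the shNDRG1 arrays, at 0.23 to 0.39, lie clear of the control arrays, at -0.07 to 0.01, whereas in VPS18 and EHD2 the batches are far apart and the 2 groups overlap.

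One set of genes mostly above the control encodes the tethering complexes that fuse endosomes with each other and with lysosomes. CORVET, which acts on early endosomes, and HOPS, which acts on late endosomes and lysosomes, share a core that includes VPS11, VPS18 and VPS33A. Of 8 measured genes of CORVET, HOPS and their Sec1/Munc18 relatives, 7 were above the control and 5 were above it in all 3 batches. On that side 3 reached an unadjusted p below 0.05. Of all genes the shares were 53.6%, 17.1% and 5.7%. Leaving out batch 1, 2 or 3, 7, 6 and 7 of the 8 were above 0, against 8057, 7894 and 7817 of all 14812 genes.

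VPS33A, the Sec1/Munc18 subunit that guides membrane fusion by SNARE proteins, was at 0.23, 0.27 and 0.39 on the shNDRG1 arrays of batches 1, 2 and 3 and at -0.01, -0.07 and 0.01 on the control arrays. The groups did not overlap, and the control arrays lay close together. Its log2 difference was 0.32 (standard error 0.05, 95% interval 0.17 to 0.46, adjusted p = 0.318 in limma), or 1.24-fold. No other of the 83 genes had a smaller p in limma, either with the block or without it.

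VPS18, a core subunit that ends in a RING domain, was at 0.10, 0.83 and 0.71 on the shNDRG1 arrays and at -0.32, 0.43 and -0.12 on the control arrays. Each shNDRG1 array was above its own control, but the control array of batch 2 was above the shNDRG1 array of batch 1. Its log2 difference, 0.55 (standard error 0.11, adjusted p = 0.336 in limma), was the largest of the 83. The difference was 0.42 and 0.40 in batches 1 and 2 and 0.82 in batch 3, and the mean without batch 3 was 0.41.

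VPS33B, a paralog of VPS33A that pairs with VIPAS39 in a complex of its own, was at 0.29, 0.15 and 0.14 on the shNDRG1 arrays and at -0.05, 0.05 and -0.31 on the control arrays. The groups did not overlap, with a log2 difference of 0.30 (standard error 0.09, adjusted p = 0.439 in limma). The core subunit VPS11 had a log2 difference of 0.26 (standard error 0.11), made of 0.09, 0.15 and 0.54 in the 3 batches, and did not reach an unadjusted p of 0.05. Among the subunits that set HOPS and CORVET apart none reached an unadjusted p of 0.05. VPS39, a HOPS subunit, had a log2 difference of 0.09 (standard error 0.08) with both signs in the batches (0.12, -0.07 and 0.23), and the mean ran from 0.02 without batch 3 to 0.17 without batch 2. VPS41, the other one, had a log2 difference of 0.13 (standard error 0.05), whereas VPS8, a CORVET subunit, had one of -0.09 (standard error 0.07). VPS45, the Sec1/Munc18 protein of early endosomes, differed by 0.22 and 0.52 in batches 1 and 2 and by -0.39 in batch 3.

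The products of the ESCRT-III genes, the CHMP proteins, polymerize into the filaments that cut the neck of the vesicle. Of 10 measured, 9 were above the control, 5 of them in all 3 batches, and 2 of the 9 reached an unadjusted p below 0.05. Over all genes these shares on the side above the control were 53.6%, 17.1% and 5.7%. CHMP1A was the exception, with a log2 difference of -0.05 (standard error 0.14). Leaving out batch 1, 2 or 3, 10, 9 and 8 of the 10 were above 0, against 8057, 7894 and 7817 of all 14812 genes. The median log2 difference of the 10 was then 0.21, 0.08 and 0.27, against 0.18 with all batches. After a repeated quantile normalization 8 of the 10 were above 0 (50.2% of all genes were), with a median of 0.12.

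CHMP1B, which recruits the microtubule-severing enzyme spastin to ESCRT-III, was at 0.26, 0.0018 and -0.0018 on the shNDRG1 arrays and at -0.0047, -0.60 and -0.32 on the control arrays. The groups did not overlap, although by a narrow margin, since the highest control array, of batch 1, was close to the 2 lower shNDRG1 arrays. The log2 difference was 0.39 (standard error 0.08, adjusted p = 0.367 in limma), or 1.31-fold. CHMP6, which joins ESCRT-II to the growing ESCRT-III filament, was at 0.05, 0.37 and 0.12 on the shNDRG1 arrays and at -0.17, -0.04 and -0.39 on the control arrays. Every shNDRG1 array was above 0 and every control array below it. This gave a log2 difference of 0.38 (standard error 0.07, adjusted p = 0.336 in limma).

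CHMP4B, the main filament subunit, had differences of 0.03, 0.15 and 0.33 in the 3 batches, with a mean of 0.17 (standard error 0.08). Its paralog CHMP4A had 0.02, 0.50 and 0.23, and although its groups did not overlap it did not reach an unadjusted p of 0.05 with the block. Both were above 0 in each batch, with the smallest difference in batch 1. VPS4A, one of the paired ATPases that take the filament apart, had a log2 difference of 0.14 (standard error 0.05, adjusted p = 0.494 in limma), with similar differences of 0.11, 0.15 and 0.15 in the batches. For VPS4B, the other one, the mean was 0.12 (standard error 0.07), made of 0.08, 0.28 and 0.00080.

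Upstream of ESCRT-III, TSG101 stood out among genes with smaller differences. TSG101, the ESCRT-I subunit that binds ubiquitinated cargo, was at 0.13, 0.02 and -0.0044 on the shNDRG1 arrays and at -0.02, -0.27 and -0.23 on the control arrays. The groups did not overlap, again by a narrow margin, and the differences were alike in the batches, at 0.15, 0.29 and 0.23. The log2 difference was 0.22 (standard error 0.05, adjusted p = 0.394 in limma). The other 5 ESCRT-I genes, VPS28 and VPS37A to VPS37D, had log2 differences between -0.07 and 0.10 and none reached an unadjusted p of 0.05. The 2 probes of VPS37B differed in direction, with means of -0.02 and 0.14. The ESCRT-0 gene HGS, whose product captures ubiquitinated cargo first, had a log2 difference of 0.07 (standard error 0.10), and its partners STAM and STAM2 had 0.04 and -0.03. The ESCRT-II genes VPS25 and VPS36 had -0.10 (standard error 0.08) and -0.03 (standard error 0.14). None of these 5 genes kept a sign over the 3 batches.

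**Figure D2:**
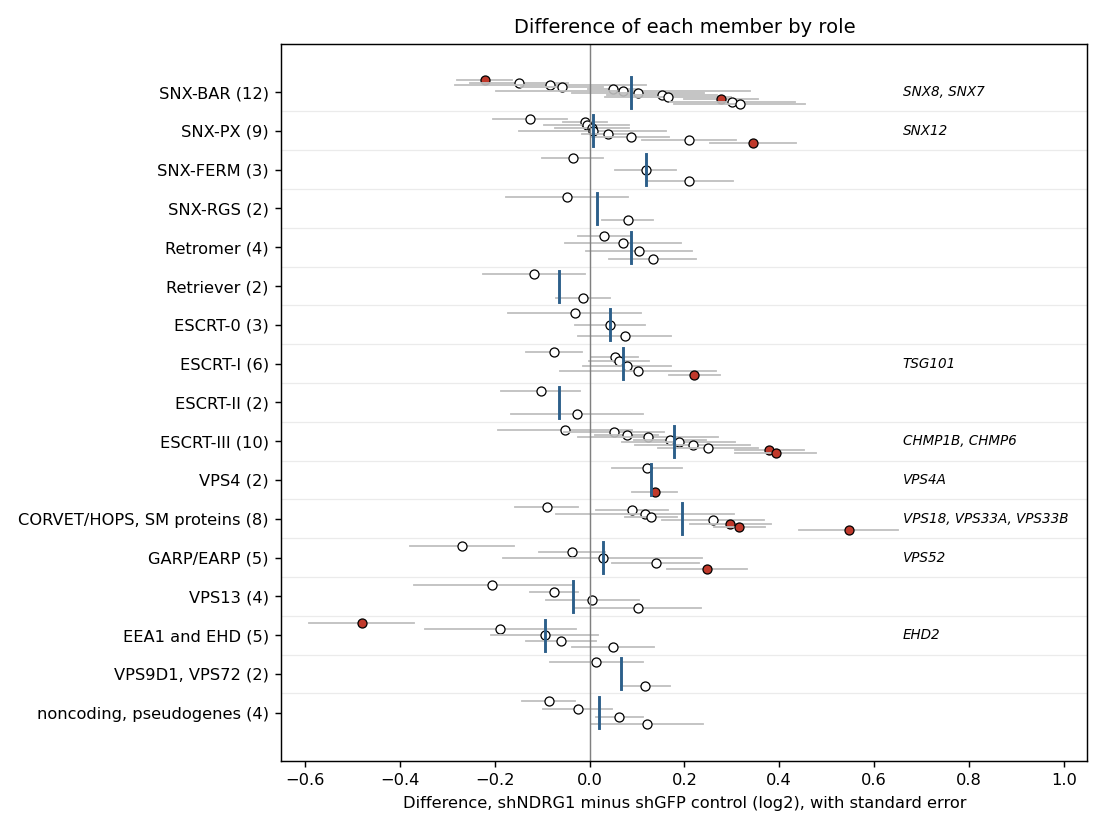
Log2 difference, shNDRG1 minus shGFP control (horizontal axis), of each of the 83 genes, grouped by role with the number of genes in brackets, where circles are genes with their standard errors from limma, filled where the unadjusted p was below 0.05 and then named at the right, and blue lines are the medians of the groups. The medians are 0.19 for CORVET, HOPS and their relatives and 0.18 for ESCRT-III, against -0.09 for EEA1 and the EHD genes.

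Promoter sequence was set beside these differences for the genes that a RefSeq table covers, in windows of 300 bases (250 before and 50 after the start, GRCh38.p14). Windows were found for 61 of the 83 genes, 71 windows in all. The letters GTCACGTG or their reverse complement CACGTGAC, an E-box with the flank favoured by TFEB and its relatives, which activate lysosomal genes, were in 8 of the 71 windows (11.3%), against 2.4% of all 35116 windows and 3.08% of those of protein-coding genes. The 7 genes with the letters did not share a direction. SNX8, VPS11, CHMP4A, VPS37B and VPS50 had log2 differences of 0.28, 0.26, 0.25, 0.06 and 0.03, and VPS8 and VPS26C had -0.09 and -0.12. The cAMP response element TGACGTCA, which reads the same on both strands, was in 3 of the 71 windows (4.23%, against 1.85% of all windows and 2.26% of those of protein-coding genes), those of CHMP1B, SNX5 and VPS37B. A match is a description of the letters and not of binding. The windows of the 3 genes with the largest differences among the 7, and that of CHMP1B, are shown so that the letters can be read in place, 5′ to 3′ on the strand of the gene with the matched letters in capitals, at chr7:2314392-2314691 (minus strand) for SNX8, chr11:119067568-119067867 (plus strand) for VPS11, chr14:24213439-24213738 (minus strand) for CHMP4A and chr18:11851163-11851462 (plus strand) for CHMP1B.
SNX8: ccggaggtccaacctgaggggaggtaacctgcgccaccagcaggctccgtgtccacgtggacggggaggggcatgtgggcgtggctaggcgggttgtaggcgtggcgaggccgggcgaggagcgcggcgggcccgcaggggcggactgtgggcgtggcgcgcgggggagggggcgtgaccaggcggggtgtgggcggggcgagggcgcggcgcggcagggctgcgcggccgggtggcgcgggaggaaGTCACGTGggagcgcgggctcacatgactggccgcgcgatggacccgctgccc
VPS11: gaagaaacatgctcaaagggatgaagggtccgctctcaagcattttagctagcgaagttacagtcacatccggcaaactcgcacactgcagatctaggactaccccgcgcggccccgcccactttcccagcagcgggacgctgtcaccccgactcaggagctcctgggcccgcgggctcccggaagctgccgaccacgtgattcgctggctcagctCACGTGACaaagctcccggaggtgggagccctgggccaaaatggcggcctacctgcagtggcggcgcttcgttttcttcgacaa
CHMP4A: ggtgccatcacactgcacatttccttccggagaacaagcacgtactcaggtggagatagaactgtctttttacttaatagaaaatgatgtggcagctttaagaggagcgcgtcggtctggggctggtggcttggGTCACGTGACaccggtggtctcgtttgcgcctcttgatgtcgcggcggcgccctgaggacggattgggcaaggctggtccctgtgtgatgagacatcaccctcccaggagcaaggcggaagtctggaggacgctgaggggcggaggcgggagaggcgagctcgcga
CHMP1B: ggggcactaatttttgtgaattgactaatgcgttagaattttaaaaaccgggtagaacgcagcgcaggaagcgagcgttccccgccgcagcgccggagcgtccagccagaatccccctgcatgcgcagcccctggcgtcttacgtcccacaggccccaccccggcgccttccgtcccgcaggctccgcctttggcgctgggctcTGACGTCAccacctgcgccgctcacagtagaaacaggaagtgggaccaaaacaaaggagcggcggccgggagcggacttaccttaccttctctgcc
Relative to the start, the letters begin at -3 in SNX8, -34 in VPS11, -116 in CHMP4A, where both spellings overlap, and -46 in CHMP1B.

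Among the 26 measured sorting nexins, 17 were above the control (53.6% of all genes were), and SNX12, SNX8 and SNX7 reached an unadjusted p below 0.05 (9.45% of all genes). SNX12, a near relative of SNX3 made of little more than a phosphoinositide-binding PX domain, was at 0.0021, 0.47 and 0.28 on the shNDRG1 arrays and at -0.11, 0.04 and -0.21 on the control arrays. The groups overlapped only in that the control array of batch 2 was above the shNDRG1 array of batch 1. The log2 difference of SNX12 was 0.34 (standard error 0.09, adjusted p = 0.420 in limma), made of 0.12, 0.42 and 0.49. SNX8, which carries a membrane-bending BAR domain, was at -0.14, 0.37 and 0.08 on the shNDRG1 arrays and at -0.32, 0.17 and -0.38 on the control arrays. It was above its own control in each batch while the groups overlapped, with a log2 difference of 0.28 (standard error 0.08, adjusted p = 0.437 in limma).

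SNX7 was the sorting nexin below the control with the smallest p. SNX7, a BAR domain protein of the SNX4 complex on recycling endosomes, was at 0.03, -0.29 and -0.26 on the shNDRG1 arrays and at 0.15, -0.05 and 0.03 on the control arrays. Its log2 difference was -0.22 (standard error 0.06, adjusted p = 0.413 in limma), and the groups overlapped only in that the shNDRG1 array of batch 1 was above the control array of batch 2. The other partners of SNX4 did not share this direction, since SNX30 had a log2 difference of 0.30 (standard error 0.13; 0.17, 0.66 and 0.08 in the batches, and 0.12 without batch 2) and SNX4 itself differed by 0.16 and 0.69 in batches 1 and 2 and by -0.64 in batch 3.

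The sorting nexins that act with retromer showed small differences or differences of both signs. SNX1 had a log2 difference of 0.05 (standard error 0.05, 95% interval -0.09 to 0.19), SNX3 of 0.09 (standard error 0.08) and SNX27, which links cargo with a PDZ motif to retromer, of 0.12 (standard error 0.06). SNX5 had one of -0.15 (standard error 0.10) that came mainly from batch 3, with -0.02 and -0.01 in batches 1 and 2 and -0.42 in batch 3. SNX9, which acts with dynamin at clathrin-coated pits, had 0.01, 0.67 and 0.27, with a mean of 0.32 (standard error 0.14). SNX17, which recognizes LDL receptor family members and integrins, had 0.06, 0.13 and 0.44, with a mean of 0.21 (standard error 0.09). Neither SNX9 nor SNX17 reached an unadjusted p of 0.05. SNX24, another small PX protein, was below its control in each batch by 0.01 to 0.31 (log2 difference -0.13, standard error 0.08). SNX29 is among the genes with near-identical pseudogene copies (SNX29P1 and SNX29P2), so probes for them may share signal, and its log2 difference of -0.0060 is uncertain for that reason.

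All 4 retromer genes were above the control on average (53.6% of all genes were), but in batch 3 0 of the 4 were (55.2%). VPS35, the backbone of retromer, was at 0.19, -0.10 and 0.04 on the shNDRG1 arrays and at 0.15, -0.46 and 0.05 on the control arrays. Only batch 2 held a difference of note, 0.36, against 0.04 in batch 1 and -0.01 in batch 3. The log2 difference was 0.13 (standard error 0.09, 95% interval -0.12 to 0.38). VPS26A, VPS26B and VPS29 had log2 differences of 0.10, 0.03 and 0.07. Without batch 2, 2 of the 4 retromer genes were above 0, and after a repeated quantile normalization also 2 of 4. The retriever genes VPS35L and VPS26C, whose complex returns integrins and lipoprotein receptors to the surface with SNX17, had log2 differences of -0.01 (standard error 0.06) and -0.12 (standard error 0.11).

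Of EEA1 and the EHD genes 4 of 5 were below the control (46.4% of all genes were). In batch 3, however, 3 of the 5 were above it (55.2% of all genes). EHD2, an ATPase that rings the neck of caveolae, was at -0.51, 0.34 and -0.29 on the shNDRG1 arrays and at 0.10, 0.99 and -0.10 on the control arrays. Each shNDRG1 array was below its own control, whereas the groups overlapped because both arrays of batch 2 were high. EHD2 thus had a log2 difference of -0.48 (standard error 0.11, adjusted p = 0.385 in limma), or 1.40-fold lower, the lowest of the 83 genes. The differences were -0.60 and -0.65 in batches 1 and 2 and -0.19 in batch 3, and the mean without batch 3 was -0.63. Its relatives on recycling endosomes did not follow it, with -0.06 (standard error 0.07) for EHD1, -0.09 (standard error 0.11) for EHD3 and 0.05 (standard error 0.09) for EHD4. EEA1, which tethers early endosomes through RAB5 and a phosphoinositide, was at 0.33, -1.78 and -0.64 on the shNDRG1 arrays and at 0.15, -1.64 and -0.04 on the control arrays. Both arrays of batch 2 were far below the rest, and the shNDRG1 array of batch 3 lay between them and the others. EEA1 had a log2 difference of -0.19 (standard error 0.16), with 0.17, -0.14 and -0.60 in the 3 batches.

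In the GARP and EARP complexes, which tether endosome-derived vesicles to the Golgi and to recycling endosomes, the shared subunit VPS52 was at 0.13, 0.10 and 0.01 on the shNDRG1 arrays and at -0.01, -0.05 and -0.44 on the control arrays. The groups did not overlap, and the lowest array was the control of batch 3. The log2 difference was 0.25 (standard error 0.08, adjusted p = 0.492 in limma), and both its probes had a mean above 0, at 0.23 and 0.26. The other shared subunits VPS53 and VPS51 had log2 differences of 0.14 (standard error 0.09) and -0.04 (standard error 0.07). VPS53 differed by -0.04, 0.09 and 0.36 in the batches and by 0.03 on average without batch 3, and the 2 probes of VPS51 had means of -0.07 and 0.0002. VPS54, particular to GARP, had -0.27 (standard error 0.11), with -0.35 and -0.47 in batches 1 and 3 and 0.01 in batch 2. VPS50, particular to EARP, had 0.03 (standard error 0.21), with 0.55 in batch 2 and -0.49 in batch 3.

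The VPS13 proteins, which carry lipids between membranes at contact sites, including contacts with lipid droplets, had log2 differences between -0.21 and 0.10. VPS13C, found at late endosomes and lipid droplets, differed by 0.33 and 0.23 in batches 1 and 2 and by -0.26 in batch 3, with a mean of 0.10 (standard error 0.13). VPS13A had a log2 difference of -0.21 (standard error 0.16), nearly all of it from batch 3 at -0.67, and VPS13D was below its control by 0.08, 0.02 and 0.12 (standard error 0.05). In batch 3 0 of the 4 were above 0 (55.2% of all genes were). Of the remaining genes, VPS72 and VPS9D1 had log2 differences of 0.12 (standard error 0.05) and 0.01 (standard error 0.10). The 4 noncoding or pseudogene members lay between -0.09 and 0.12, and VPS13A-AS1, an antisense RNA of the VPS13A locus, had -0.18, -0.04 and -0.04 in the 3 batches.

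**Figure D3:**
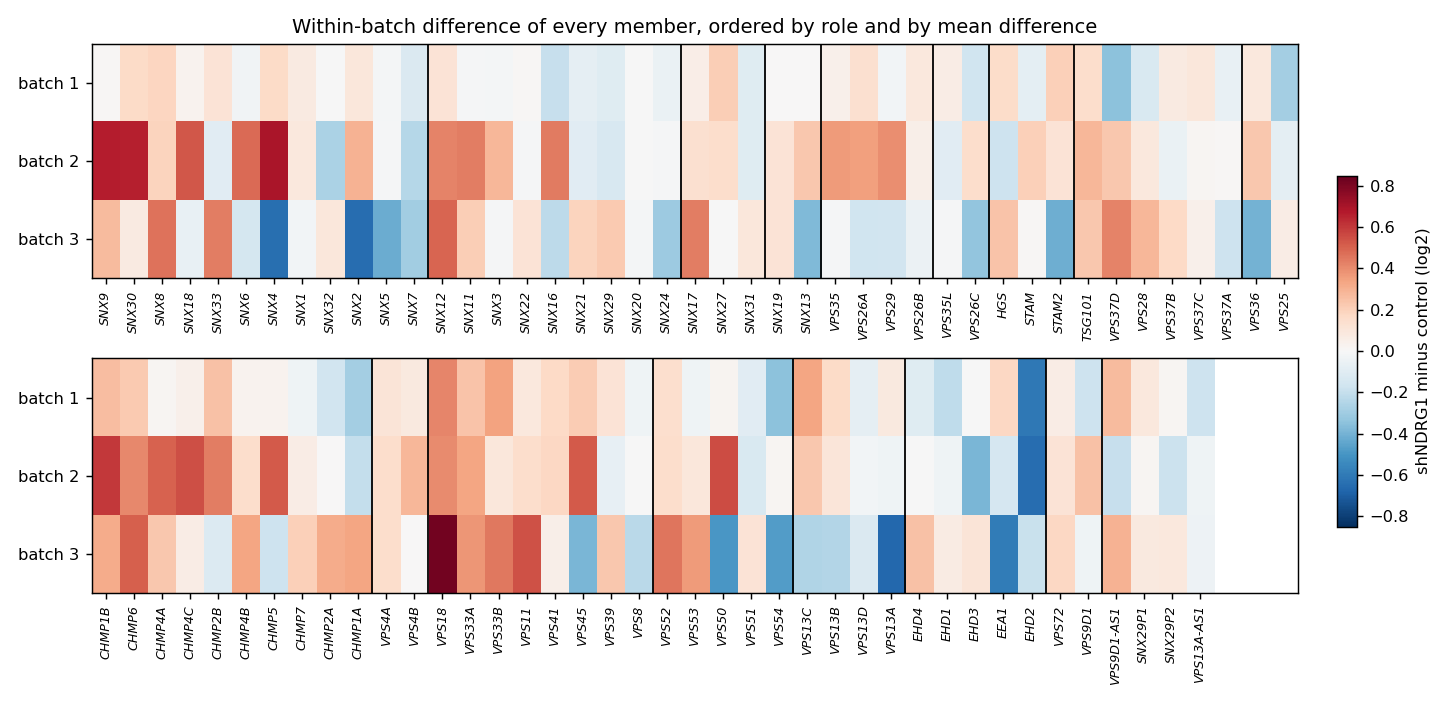
Within-batch log2 difference, shNDRG1 minus shGFP control (colour), of each of the 83 genes (columns) in the 3 batches (rows), with black lines between roles. The CORVET and HOPS genes in the lower panel are mostly red in each batch. The ESCRT-III genes there are mostly red in batches 2 and 3 (medians 0.42 and 0.27) but mostly pale in batch 1 (median 0.03). SNX4, SNX2, VPS50 and VPS45 are red in batch 2 and blue in batch 3.

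The changes of sign between batches ran with a difference between the arrays that spanned all genes. The offset of a gene in batch 2, its mean on both arrays of batch 2 minus its mean on both arrays of batch 1, ran from -1.95 for EEA1 to 0.87 for EHD2. An offset of -0.5 or lower was found for 22 of the 83 (26.5%), among them SNX2 at -1.76, VPS13A at -1.71, VPS13C at -1.55 and STAM2 at -1.42, against 10.1% of all genes. For these 22 the median difference was 0.09 in batch 1 and 0.32 in batch 2 but -0.32 in batch 3, with 17, 19 and 3 of the 22 above 0. For the other 61 the medians were 0.01, 0.06 and 0.15. Across the 83 genes the offset and the difference in batch 3, which have no array in common, had a Pearson r of 0.769 (Spearman rho 0.71), given as a description over genes that share the same arrays, and over all 14812 genes r was 0.638. The shNDRG1 array of batch 3, taken relative to batch 1, followed the offset (r = 0.85), and the control array of batch 3, taken the same way, did so much less (r = 0.083), although both of these share the arrays of batch 1 with the offset.

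The part of this array-wide difference in the values of batch 3 was not tested. Each of the 10 genes higher and the 2 lower at an unadjusted p below 0.05 was among the 61 with an offset above -0.5. Of all genes, 13314 had such an offset, and 797 of them were higher and 462 lower at that threshold. Of the 1498 at or below -0.5, 48 were higher and 92 lower. Without batch 3, 12 of the 83 were higher and 2 lower at that threshold (16.9% in either direction, against 12.1% of all genes), and without batch 2, 7 were higher and 4 lower (13.3%, against 7.46%). Of the 12 genes in the complete comparison, 7 remained without batch 3, 7 without batch 2 and 8 without batch 1. VPS33A, at an offset of -0.01, VPS33B, at -0.02, and TSG101, at -0.18, had offsets near 0, and VPS18, at 0.74, had one of the highest.

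**Figure D4:**
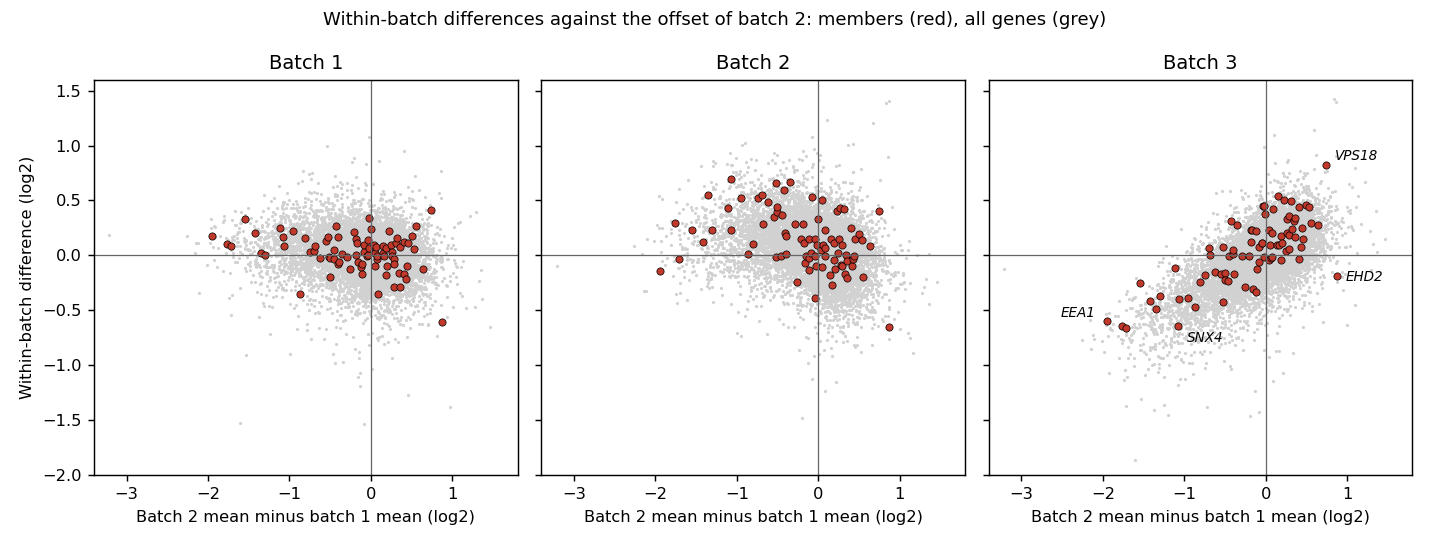
Within-batch log2 difference (vertical axis) in batches 1, 2 and 3 against the offset of batch 2, its mean minus that of batch 1 (horizontal axis, log2), for the 83 genes (red) and all 14812 genes (grey). The cloud rises to the right in batch 3 (r = 0.769 for the 83 genes), where EEA1, SNX4, VPS18 and EHD2 are named. It leans the other way in batch 2 (r = -0.352), where the offset and the difference are made from the same arrays, so the 2 values are not comparable.

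Genes that work with this machinery but do not carry these names were counted from a separate list of 63, of which 45 were measured. Above the control were 28 (53.6% of all genes were), and 0 passed an adjusted p of 0.05 in limma. At an unadjusted p below 0.05, 7 were higher (5.7% of all genes were) and 3 were lower (3.74% of all genes). MTMR2, a phosphatase of endosomal phosphoinositides that is mutated, as NDRG1 is, in a recessive form of Charcot-Marie-Tooth neuropathy, was at 0.35, -0.04 and 0.23 on the shNDRG1 arrays and at 0.04, -0.37 and -0.09 on the control arrays. It was above its own control by nearly the same amount in each batch, 0.31, 0.33 and 0.32. Its log2 difference was 0.32 (standard error 0.05, adjusted p = 0.304 in limma). MTMR4, a phosphatase of the same family, was at 0.12, 0.34 and 0.36 on the shNDRG1 arrays and at -0.23, 0.05 and -0.19 on the control arrays, with a log2 difference of 0.39 (standard error 0.07, adjusted p = 0.327 in limma). Of 10 listed genes of phosphoinositide control 5 were measured. All 5 had a mean above 0 (53.6% of all genes did), with a median log2 difference of 0.27. Only MTMR2 and MTMR4 were above 0 in each batch (17.1% of all genes were). MTM1, UVRAG and VAC14 had both signs, and MTM1 differed by 0.27, 0.60 and -0.06.

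IGF2R, the mannose phosphate receptor that retromer and the SNX-BAR proteins return to the Golgi, was at -0.42, -0.24 and -0.29 on the shNDRG1 arrays and at 0.12, 0.23 and -0.01 on the control arrays. The groups did not overlap, and the log2 difference was -0.43 (standard error 0.07, adjusted p = 0.314 in limma). ANKRD27, which binds VPS29 on endosomes, was also below the control without overlap, with -0.31, -0.22 and -0.19 in the batches and a log2 difference of -0.24 (standard error 0.05, adjusted p = 0.372 in limma). The measured genes of retromer cargo and control did not share this direction. Above the control were 4 (53.6% of all genes) and below it 4 (46.4%), with a median log2 difference of 0.07. M6PR, another mannose phosphate receptor, lay above the control without overlap (0.19, standard error 0.09). PACSIN3 was the 1 higher at an unadjusted p below 0.05 (0.24, standard error 0.08), against 2 lower. Of all genes 5.7% were higher and 3.74% lower at that threshold. Of 12 measured genes of tethering and fusion 8 were above the control (53.6% of all genes were). At an unadjusted p below 0.05, 4 were higher (5.7% of all genes). The SNARE gene VTI1B (log2 difference -0.20, standard error 0.06) was the 1 that was lower (3.74%). Of 16 genes of the WASH complex and of the COMMD and CCDC partners of retriever 7 were above the control (53.6% of all genes were). Their median log2 difference was -0.01, and 0 reached an unadjusted p of 0.05 in either direction (9.45% of all genes).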

How the data were processed

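Gene expression was measured in SKBR3 cells on 6 Affymetrix Gene 2.0 ST arrays, 3 of shNDRG1 and 3 of shGFP control cells. The authors checked the arrays in Affymetrix Expression Console, summarized them by PLIER with quantile normalization in GeneSpring and subtracted a baseline. For each array they deposited 1 value per probe, which is taken here to be on the log2 scale. No source used here gives a genome build. The table held no per-sample column besides those of these arrays. Of 44629 probes, 15835 had 1 gene symbol, 0 had several and 28794 are unnamed here. Probes were averaged per gene, which concerned 3 of the 83 genes described (VPS37B, VPS51 and VPS52). No filter on dim probes was applied, because the values keep no level. All 14812 genes were fitted with limma 3.58.1 in R 4.3.3 (lmFit and eBayes) with the batch as a block, with Benjamini-Hochberg adjustment over all genes and a threshold of 0.05. The pairing comes from the batch numbers of the labels. The deviations of paired arrays from the means of their groups had correlations over all genes of 0.785, 0.833 and 0.163 in batches 1, 2 and 3. The number of arrays limits the precision. With the block, p-values rest on the spread of the within-batch differences over 3 batches, moderated over all genes, and not on the spread between arrays. The paper names no test for the arrays. The genes described and the gene lists were chosen with earlier results of these data known. Named by rule were NDRG1, in each direction the 6 genes of lowest p among those with 1 sign in all 3 batches, an anchor for each role, and in each direction the 2 partner genes of lowest p. Other genes were named after seeing their values. The alternatives were no block, the label day as a block, repeated quantile normalization, median centring, other variance models, array weights, the probe of largest range, stricter thresholds and leaving out each batch. The fit was tested on simulated data. Plots were made in Python 3.11.15 (matplotlib 3.10.9).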

Additional observations from a re-analysis of the deposited data

How the results depend on the processing

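None of the 83 genes passed an adjusted p of 0.05 in limma under any alternative run. Of all genes 1 passed with a trended and robust variance, and it was none of the 83. The counts at an unadjusted p below 0.05, 10 higher and 2 lower in the comparison paired by batch, depended on the variance model and the pairing. With no replicate block they were 6 and 0, with unmoderated variance 4 and 1, at an unadjusted p below 0.01 4 and 0, with at least a 1.2-fold change as well 7 and 1, and with the label day as a block 7 and 1. With unmoderated variance the share called in either direction was 6.02% of the 83 genes against 6.64% of all genes, so the excess over all genes was not seen there. Without the block it was 7.23% against 4.26%, and with the label day as a block 9.64% against 5.06%. For the stricter thresholds the share of all genes was not counted. Leaving out each batch gave 7 to 12 higher and 1 to 4 lower. In either direction these were 14.5%, 13.3% and 16.9% of the 83 genes without batches 1, 2 and 3. Of all genes the shares were 5.46%, 7.46% and 12.1%. The median log2 difference over the 83 genes stayed above 0, between 0.035 after repeated quantile normalization and 0.073 without batch 1. None of the 12 genes with an unadjusted p below 0.05 changed direction under a rescaling. With array weights or a batch left out none could, because each had the same sign in every batch. Of the 83, 14 changed sign after repeated quantile normalization (among them STAM, VPS26A, VPS29, VPS45, VPS50, VPS51 and SNX4), 11 with array weights, 0 with median centring, and 5, 20 and 13 without batches 1, 2 and 3. Leaving out each batch, the log2 difference of VPS13C ran from -0.014 (without batch 1) to 0.28, that of EHD1 from -0.13 to 0.018 (without batch 1), that of SNX3 from -0.012 (without batch 2) to 0.14, that of HGS from -0.011 (without batch 3) to 0.20, and that of EEA1 from -0.37 to 0.016 (without batch 3). The cause of these changes was not tested. With the batch as a block, leaving out 1 array of a batch removes the pair, so single arrays were not left out.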
